A study of Mus musculus with 18 samples.

Results

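Gene expression in mouse liver was compared between the middle of the dark phase, zeitgeber time (ZT) 17, and the middle of the light phase, ZT5, with ZT0 at lights on. The comparison rests on 6 of the 18 livers of the series, namely the 3 livers labelled ZT17 and the 3 labelled ZT5, chosen by their time labels alone and taken 12 h apart. All mice were wild-type (WT) males of 8 to 9 weeks under 12 h of light and 12 h of dark, and each liver came from another animal. No treatment was given, so the time of day is the difference between the groups. The mouse strain and the access to food are not given in the sources used here. Polyadenylated RNA was sequenced, and the deposited value of a gene is a normalized read count, the estimated reads of the gene per 1000000 reads of a library size that the authors adjusted. Values of different genes are not scaled to gene length and are compared only between livers of the same gene. Because whole livers were measured, fewer cells of a type and less RNA per cell cannot be told apart.

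The molecular clock of liver cells is a feedback loop. The activators BMAL1 (encoded by Arntl), CLOCK and NPAS2 switch on the period and cryptochrome genes, whose proteins repress the activators. The REV-ERB receptors (Nr1d1, Nr1d2) repress Arntl and Cry1. Around this loop, daily rhythms of feeding, body temperature and hormones act on metabolism and on protein folding in the liver. Mice are active and eat mainly in the dark, so the 2 times fall in the usual rest and activity phases.

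Depth ranged from 11602598 to 23242842 estimated reads in the ZT5 livers and from 12442234 to 15204349 in the ZT17 livers. Of 14449 genes tested, 459 were at the floor of 0 estimated reads in at least 1 of the 6 livers, where a low value cannot be told from 0. Taken across genes, which are not independent replicates, Pearson's r between a ZT5 and a ZT17 liver was 0.9753 at the median of the 9 pairs on the log2(value + 1) scale, and 0.989 between livers of the same time. The ZT5 livers were not alike in their clock genes. Over the 23 clock genes listed for this work, ZT5 liver 3 lay nearer to the mean of the other time ZT9 (root mean square distance 0.462 on the log2 scale) than to that of the remaining ZT5 livers (0.606), and ZT5 liver 1 lay 0.611 from its own group. The 3 ZT17 livers were nearest to their own time, at 0.234 to 0.315. ZT5 liver 1 also stood apart in markers of other cells. The summed value of 5 red blood cell markers was 674 in it, against 172 in ZT5 liver 3 and 225 to 348 in the ZT17 livers, and that of 12 stellate cell and fibroblast markers was 490.3 against 306 to 352 in the ZT17 livers. The part of these cells in the differences was not tested. Where a call named in the text changes without ZT5 liver 1 or 3, the value without it is given.

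At ZT17, 1338 genes were higher and 1515 lower than at ZT5, 9.26% and 10.5% of the genes tested (limma moderated test on log2(value + 1), two-sided, Benjamini-Hochberg adjusted p below 0.05). Together they were 19.7% of the genes tested, and 4820 genes had an unadjusted p below 0.05. Most changes were small, with a median log2 difference of 0.54 among the higher and -0.57 among the lower genes, and 163 higher and 167 lower genes differed by at least 1 on the log2 scale. The balance of the directions depended on the scaling. The deposited columns add up to 941088 to 969019 at ZT5 and to 1030952 to 1077230 at ZT17, and scaling every liver to the same total moved the median difference of genes with a mean value of at least 1 from -0.02 to -0.14 and gave 767 higher and 2504 lower genes, a share of 23.4% higher among those called against 46.9% as deposited. With each liver centred on its median gene, 1651 were higher and 1245 lower (57.0% higher). In the fit of the 6 livers alone the counts were 765 and 935. Genes without overlap between the 3 livers of each time were 18.3% (ZT17 above) and 18.9% (ZT17 below) of those tested. All differences below are on the log2(value + 1) scale, which understates the change of genes with low values, and ratios are of mean deposited values. The p-values measure the difference against the spread between livers of the same time.

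Most higher genes peaked at ZT17 or had their trough at ZT5, and most lower genes did the reverse. Of the 1338 higher genes, 830 (62.0%) had their highest mean of the 6 times at ZT17, 836 had their lowest at ZT5, and 527 had both. Of the 1515 lower genes, 1009 (66.6%) were highest at ZT5, 933 were lowest at ZT17, and 619 had both. The neighbouring times took most of the rest, since 319 higher genes were highest at ZT13 and 353 lower genes were highest at ZT9. The calls came from the same livers and favour these positions. A gene called higher cannot be highest at ZT5 or lowest at ZT17, and the reverse holds for lower genes. The shares thus describe the called genes and test nothing.

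**Figure D1:**
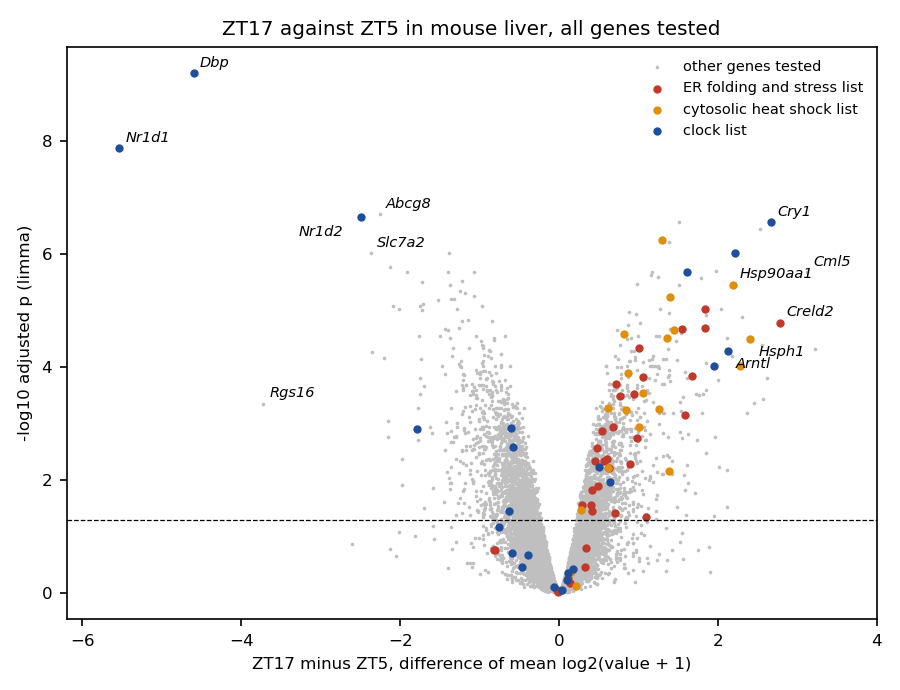
Difference between ZT17 and ZT5 for all 14449 genes tested (x axis, mean log2(value + 1) at ZT17 minus that at ZT5; y axis, -log10 of the limma adjusted p; dashed line, 0.05), with the endoplasmic reticulum (ER), heat shock and clock lists in colour. The ER and heat shock genes lie to the right of 0 with few exceptions, and clock genes stand at both edges, with Nr1d1 at -5.54 and Cry1 at 2.67.

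The clock genes were split evenly between both directions. Of 23 clock and clock output genes, 7 were higher and 7 lower at ZT17, a called share of 60.9% against 19.7% of all genes tested. The activators Arntl, Clock and Npas2, the repressors Cry1 and Per2 and the transcriptional repressor Nfil3 were among the higher genes, and the REV-ERB genes Nr1d1 and Nr1d2, the PAR bZIP factors Dbp and Tef, Bhlhe41 and Per3 were among the lower ones. The largest fall of any gene tested was that of Nr1d1.

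Nr1d1 (ENSMUSG00000020889, chr11:98767932-98775333, minus strand, GRCm38) had values of 119, 142 and 91.6 in the ZT5 livers and of 1.14, 1.16 and 2.43 in the ZT17 livers. All ZT17 livers were far below all ZT5 livers, and the ZT17 values stand for 12.9 to 35.3 estimated reads. The mean fell from 117 ± 25 to 1.57 ± 0.739 (SD, n = 3 each), 74.5-fold, with a log2 difference of -5.54 ± 0.28 (SE, limma adjusted p = 1.35e-08). Dbp (ENSMUSG00000059824, chr7:45705088-45710203, plus strand), an output factor of the loop, had 60.3, 68.3 and 83.2 at ZT5 and 1.92, 2.36 and 1.55 at ZT17. It was thus 36.3-fold lower, with no overlap (log2 difference -4.60 ± 0.18 SE, limma adjusted p = 6.23e-10). Nr1d2 fell less, from 110.2 ± 12.1 to 18.8 ± 1.95 (SD, n = 3 each; log2 difference -2.49, limma adjusted p = 2.19e-07). The ZT17 livers ranged from 16.6 to 20.2, all below the lowest ZT5 liver at 97.3.

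Cry1 (ENSMUSG00000020038, chr10:85131700-85185064, minus strand) moved the other way, with 5.47, 6.10 and 7.51 at ZT5 and 52.8, 40.1 and 44.8 at ZT17. The livers did not overlap, the ratio was 7.21, and the log2 difference was 2.67 ± 0.18 (SE, limma adjusted p = 2.75e-07).

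Arntl had 5.71, 5.09 and 1.69 at ZT5 and 20.3, 17.4 and 22 at ZT17. ZT5 liver 3 was the low one at ZT5, and all ZT17 livers were above (log2 difference 2.12, limma adjusted p = 5.26e-05). Nfil3 rose from 12.1 ± 1.96 to 38.9 ± 4.58 (SD, n = 3 each; log2 difference 1.62). Clock rose by a smaller step, from 41.0 ± 5.86 to 58.2 ± 2.24 (log2 difference 0.50, limma adjusted p = 0.00593). Npas2 was near the floor in all 6 livers, with 3 to 8 estimated reads at ZT5 and 6 to 21.9 at ZT17, and its call (log2 difference 0.64, limma adjusted p = 0.0108) was lost without ZT17 liver 1 (0.52, adjusted p = 0.0574).

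The period genes did not move together. Per2 had 14.8, 14.9 and 25.4 at ZT5 and 77.3, 94.6 and 50.2 at ZT17, 4.03-fold higher (log2 difference 1.95, limma adjusted p = 9.39e-05). Per3 had 20.4, 19.5 and 34.1 at ZT5 and 14.8, 18.4 and 12.6 at ZT17, a log2 difference of -0.63 (limma adjusted p = 0.0350). The Per3 call was lost without ZT5 liver 3 (-0.38, adjusted p = 0.155), ZT17 liver 1 (-0.62, 0.0882) or ZT17 liver 3 (-0.51, 0.120). Per1 was not called, with 5.15, 13.6 and 17.0 at ZT5 and 6.68 to 8.95 at ZT17. The spread at ZT5 was wide in 3 more genes that share the E-box control of the loop. Ciart had 2.31, 3.36 and 9.35, Bhlhe40 had 92.9, 196 and 211, and Bhlhe41 had 2.39, 8.19 and 9.07 in ZT5 livers 1, 2 and 3. ZT5 liver 1 was lowest and ZT5 liver 3 highest in each of these. With all livers the log2 differences of Per1 (-0.46), Bhlhe40 (-0.76) and Ciart (-0.59) did not pass the test (limma adjusted p = 0.351, 0.0687 and 0.197). Without ZT5 liver 1 they were -0.93, -1.13 and -0.93 and called (limma adjusted p = 0.0328, 0.00551 and 0.0484), and without ZT5 liver 3 they were -0.16, -0.54 and -0.10 and not called (0.796, 0.235 and 0.788). Bhlhe41 was called with all livers (log2 difference -1.79, limma adjusted p = 0.00126). Tef (-0.61) fell by little beside Dbp.

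**Figure D2:**
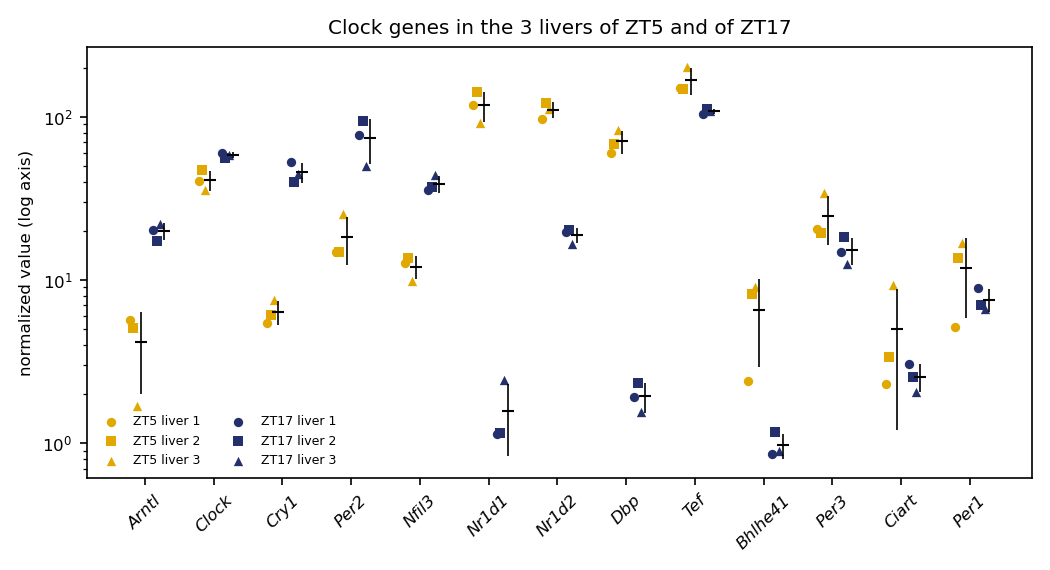
Normalized values (log axis) of 13 clock genes in each ZT5 and ZT17 liver, with the mean and SD of each time beside the points (n = 3 each). Nr1d1, Nr1d2 and Dbp drop without overlap, Cry1, Arntl, Per2 and Nfil3 rise without overlap, and the ZT5 livers are spread in Ciart, Per1 and Bhlhe41.

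The promoter windows of 2 clock genes that moved apart, Cry1 (higher) and Tef (lower), are shown because both hold the E-box CACGTG, the motif bound by CLOCK and BMAL1. The 250 bases before the RefSeq start are printed 5′ to 3′ on the gene's strand (GRCm38.p6, RefSeq), with capitals for CACGTG. In Tef capitals also mark TTANNTAA, a loose search pattern for the D-box that leaves 2 positions open, so a match need not be a D-box. The Cry1 window is chr10:85185055-85185304 on the minus strand and the Tef window, the first of 2 listed for the gene, is chr15:81802423-81802672 on the plus strand.
Cry1: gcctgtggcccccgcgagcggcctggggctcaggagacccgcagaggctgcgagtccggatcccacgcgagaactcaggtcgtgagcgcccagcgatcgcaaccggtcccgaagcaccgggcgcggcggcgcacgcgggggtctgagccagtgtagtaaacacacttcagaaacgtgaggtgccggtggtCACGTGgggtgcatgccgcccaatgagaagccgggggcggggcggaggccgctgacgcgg
Tef: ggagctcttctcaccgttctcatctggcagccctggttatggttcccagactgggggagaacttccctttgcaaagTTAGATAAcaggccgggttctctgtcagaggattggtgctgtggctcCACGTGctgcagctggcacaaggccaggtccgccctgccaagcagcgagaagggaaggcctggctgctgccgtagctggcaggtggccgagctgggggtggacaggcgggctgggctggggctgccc
The E-box starts 60 bases before the RefSeq start of Cry1 and 127 bases before that of Tef. In GENCODE the Tef gene starts at chr15:81802421, so the printed Tef window lies within that gene body. Windows from 250 bases before to 50 after the start were searched on both strands for 10326 of the 14449 genes, those with a match by symbol in the RefSeq table, and for 18 of the 23 clock genes. CACGTG was in 6 of 26 clock windows (23.1%), in 9.60% of the windows of genes tested, in 11.5% of those of higher genes and in 11.2% of those of lower genes. The motif thus stood in like shares of the windows of both directions.

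Genes for protein folding in the endoplasmic reticulum were higher at ZT17 almost as a group. Of 35 genes of ER folding and stress, 27 (77.1%) were higher and 0 lower, with a median log2 difference of 0.60 against -0.02 over all genes tested. In 27, all ZT17 livers were above all ZT5 livers. Over all genes tested, 9.26% were called higher and 18.3% had all ZT17 livers above. The count of higher calls in the list was 20 with every liver scaled to the same total and 21 to 25 without any 1 liver. The ER folds secreted and membrane proteins with chaperones and disulfide isomerases, and the unfolded protein response raises these genes when folding falls behind. The summed value of the 35 genes was 6325 to 6523 in the ZT5 livers and 9535 to 11986 in the ZT17 livers.

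The largest rise of the list was that of Creld2 (ENSMUSG00000023272, chr15:88819646-88826683, plus strand), an ER-resident protein induced by ER stress. Its values were 15.7, 14.9 and 14.2 at ZT5 and 131, 102 and 95.8 at ZT17. The ZT5 livers hardly differed and the ZT17 mean was 7.35-fold higher (log2 difference 2.79 ± 0.29 SE, limma adjusted p = 1.63e-05). Manf, a secreted factor of the ER stress response, had 48.6, 38.6 and 50.9 at ZT5 and 205, 178 and 126 at ZT17 (log2 difference 1.84, limma adjusted p = 9.54e-06). Hyou1, a large ER chaperone, rose from 99.96 ± 6.658 to 364 ± 63.4 (SD, n = 3 each; log2 difference 1.84, limma adjusted p = 2.02e-05). Hspa5 encodes BiP, the main chaperone of the ER, and was named after its values were seen. It had 544, 477 and 572 at ZT5 and 1960.0, 1548 and 1221 at ZT17 (log2 difference 1.55, limma adjusted p = 2.08e-05). In all 4 genes the ZT17 livers were above every ZT5 liver, and ZT17 liver 1 was highest and liver 3 lowest.

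The 8 members that were not called, named here after their values were seen, include regulators of the response. Xbp1, its transcription factor, had 182 to 203 at ZT5 and 188 to 241 at ZT17 (log2 difference 0.14), and the sensor Atf6 had -0.01. Chac1 and Asns, known targets of the amino acid and stress factor ATF4, had lower means at ZT17 (-0.82 and -0.80), each with an adjusted p of 0.17. Asns was at 6.93 in ZT5 liver 1 and at 0.509 to 1.19 in the other 5 livers, so its log2 difference was -0.11 without ZT5 liver 1 (limma adjusted p = 0.776) and -1.25, called lower, without ZT5 liver 2 (0.0382). Herpud1 (0.34), Atf3 (0.33), Derl2 (0.12) and Derl1 (-0.02) were the others, and Herpud1 was called higher without ZT17 liver 3 (0.51, limma adjusted p = 0.0432).

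The promoter of Creld2 is shown for the motifs CCAAT and CCACG, which form the ER stress response element when they stand 9 bases apart in this order. The 250 bases before the start (chr15:88819396-88819645, plus strand, RefSeq, GRCm38.p6) are printed with every CCAAT and CCACG, on either strand, in capitals.
Creld2: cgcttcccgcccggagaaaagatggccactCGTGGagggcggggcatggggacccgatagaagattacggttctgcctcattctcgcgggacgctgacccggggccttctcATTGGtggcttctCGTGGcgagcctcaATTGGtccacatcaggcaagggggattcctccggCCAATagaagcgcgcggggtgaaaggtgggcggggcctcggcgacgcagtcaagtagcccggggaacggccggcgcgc
CCAAT stood in 3 places and CCACG in 2, and the pair with 9 bases between, read on the minus strand, spans bases 126 to 108 before the start. CCAAT was in 26 of 31 windows of the ER list (83.9%) against 37.6% of the windows of genes tested, and CCACG in 23 (74.2%) against 45.1%. The spaced pair, a search added after the data were seen, was in 9 of the 31 windows (29.0%) and in 19 of the 13198 windows of genes tested (0.144%). The 9 windows were those of Calr, Canx, Creld2, Derl3, Dnajc3, Hsp90b1, Hspa5, Pdia6 and Syvn1. Of the 1292 windows of higher genes 11 held it. These include the 9 of the ER list, whose genes were all called higher, so the count is no separate support. Of the windows of lower genes 0 of 1565 held it, which cannot be told from the share of genes tested for so rare a pair. RefSeq windows were at hand for 29 of the 35 genes.

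Cytosolic chaperones of the heat shock response were higher as well. Of 19 genes, 17 (89.5%) were higher and 0 lower at ZT17, and the median log2 difference was 1.06. In 18, all ZT17 livers were above all ZT5 livers. Over all genes tested, 9.26% were called higher and 18.3% had all ZT17 livers above. The count of higher calls in the list was 16 or 17 in every alternative that kept the threshold, and 11 rose by at least 1 on the log2 scale. Heat shock factor 1 raises these genes when proteins unfold in the cytosol, and the body temperature of mice is higher in their active phase. Their summed value was 2380 to 2679 in the ZT5 livers and 5117 to 5596 in the ZT17 livers.

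Hsph1 (ENSMUSG00000029657, chr5:149614287-149636376, minus strand), a co-chaperone of HSP70, had 24.2, 20.04 and 28.2 at ZT5 and 146, 129 and 119 at ZT17. All ZT17 livers were over 4 times the highest ZT5 liver, and the log2 difference was 2.40 ± 0.27 (SE, limma adjusted p = 3.25e-05). Hsp90aa1, the inducible HSP90, had 121, 128 and 119 at ZT5 and 585, 542 and 565 at ZT17 (log2 difference 2.20, limma adjusted p = 3.45e-06). Hspb1, a small heat shock protein, had 8.46, 9.45 and 5.43 at ZT5 and 51.6, 29.7 and 44.1 at ZT17 (log2 difference 2.28, limma adjusted p = 9.75e-05). The spread within each time was small beside the gap in all 3. The 2 members not called were Hsf1 itself (0.16) and Hspa1a (0.21), whose sequence is nearly that of Hspa1b, so the division of reads between these 2 copies is uncertain.

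The promoter of Hspb1 (chr5:135887669-135887918, plus strand, RefSeq, GRCm38.p6) is shown for the heat shock motif GAANNTTC, in capitals in the 250 bases before the start.
Hspb1: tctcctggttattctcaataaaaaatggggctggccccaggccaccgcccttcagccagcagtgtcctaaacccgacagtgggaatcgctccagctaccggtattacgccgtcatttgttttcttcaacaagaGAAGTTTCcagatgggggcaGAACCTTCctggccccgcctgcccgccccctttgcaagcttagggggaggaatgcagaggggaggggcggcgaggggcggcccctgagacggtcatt
It held 2 matches, starting 117 and 97 bases before the start. GAANNTTC was in 11 of 20 windows of the heat shock list (55.0%), which cover 15 of its 19 genes, in 5.84% of the windows of genes tested, and in 6.58% of those of all higher genes. A match is a run of letters and no measured binding site.

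**Figure D3:**
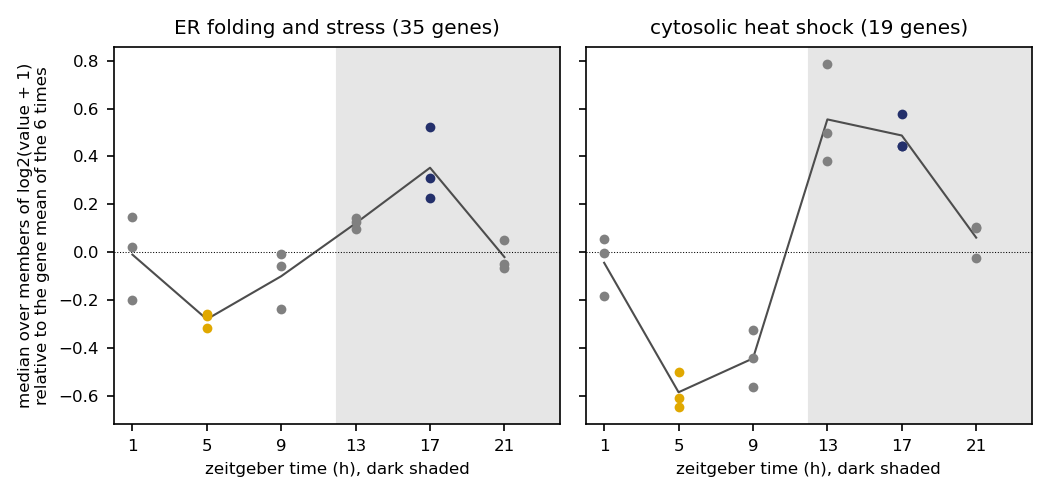
Median over the 35 ER genes (left) and the 19 heat shock genes (right) of log2(value + 1) relative to each gene's mean of the 6 times, for each liver (points; ZT5 and ZT17 coloured) with the mean of the 3 livers (line) and the dark phase shaded. The ER list is lowest at ZT5 (-0.32 to -0.26) and highest at ZT17 (0.23 to 0.52), and the heat shock list is high at ZT13 (0.38 to 0.79) and ZT17 (0.44 to 0.58).

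The rise of both lists was also set against other 12 h pairs. ZT21 against ZT9 and ZT13 against ZT1 also set a dark against a light time 12 h apart and share no liver with ZT17 against ZT5. In the ER list 4 genes were higher and 4 lower at ZT21 than at ZT9, and 4 higher and 2 lower at ZT13 than at ZT1. In the heat shock list 10 were higher at ZT21 than at ZT9 and 15 at ZT13 than at ZT1, with 0 lower in both. The rise between ZT5 and ZT17 was larger than that between ZT9 and ZT21, by the limma test of the difference itself, in 10 of the 35 ER genes and in 6 of the 19 heat shock genes, against 1.66% of genes tested. Against ZT1 and ZT13 it was larger in 15 ER genes and 8 heat shock genes (4.29% of genes tested). Creld2 differed by 2.79 in one pair and 0.44 in the other, a gap of 2.35 (limma adjusted p = 0.00468 for the gap). The gap was 1.58 for Manf and 1.62 for Hyou1 (limma adjusted p = 0.00258 and 0.00373), and 1.51 for Hsph1 (0.0372). It was 0.61 for Hsp90aa1 and 0.65 for Hspb1, which did not pass the test (limma adjusted p = 0.257 and 0.460). No test compared the 2 lists with each other. Within the day, 22 ER genes were highest at ZT17 and 8 at ZT13, and 10 heat shock genes were highest at ZT17 and 9 at ZT13.

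**Figure D4:**
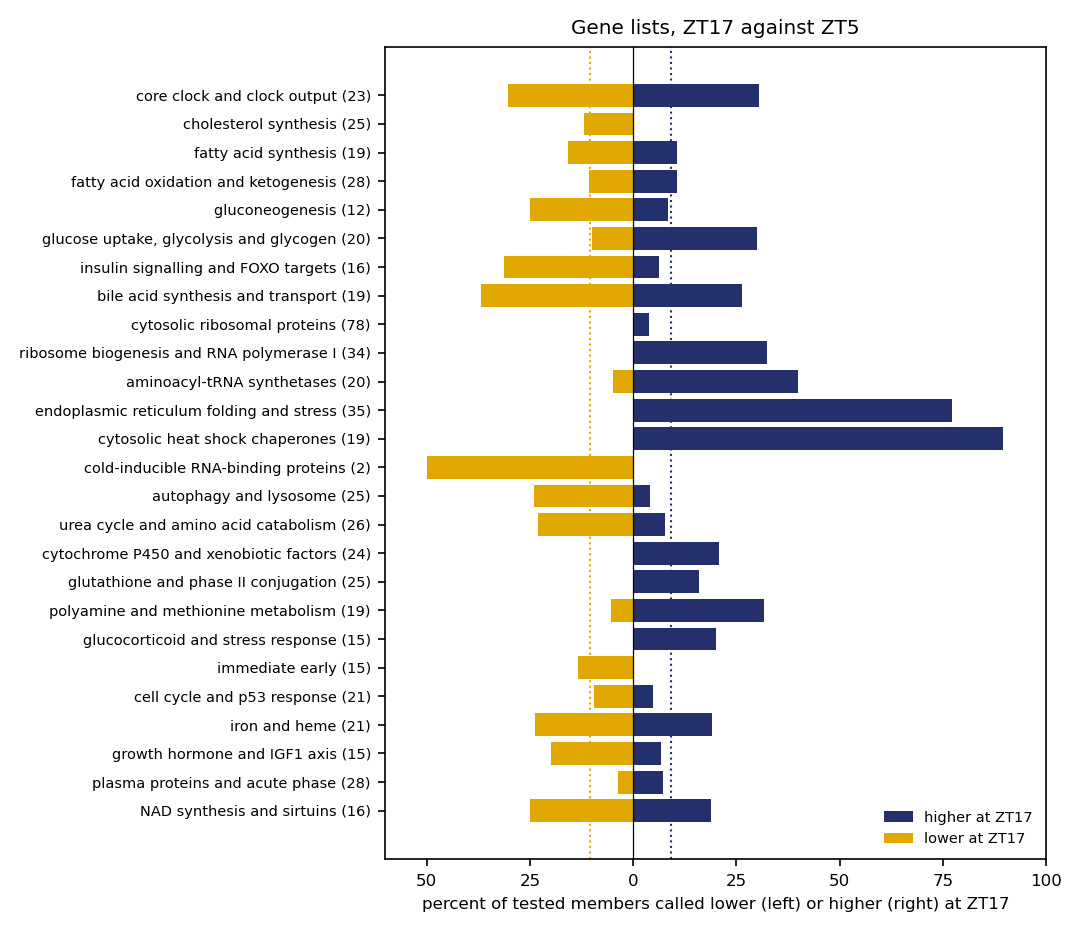
Share of the tested members of 26 gene lists that were called higher (right of 0) or lower (left of 0) at ZT17, with the number of members tested in brackets. Dotted lines mark the shares over all genes tested, 9.26% higher and 10.5% lower, and the ER and heat shock lists reach 77.1% and 89.5% higher.

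Genes that build ribosomes and charge tRNAs rose in part. Called shares were 32.4% for ribosome biogenesis and 45% for the synthetases, against 19.7% of all genes tested. Of 34 genes of ribosome biogenesis and RNA polymerase I, 11 were higher and 0 lower (median log2 difference 0.28), and the count was 7 with every liver scaled to the same total, 7 in the fit of the 6 livers alone and 7 without ZT17 liver 1. Rrp12, a ribosome assembly factor, had 5.96, 4.28 and 5.89 at ZT5 and 14.7, 13.2 and 12.0 at ZT17 (log2 difference 1.17, limma adjusted p = 9.58e-05). Of 20 aminoacyl-tRNA synthetases 8 were higher, led by Farsa (0.70), and 1, Cars (-0.57), was lower. The synthetase count was 4 with the same total in every liver and 3 in the fit of the 6 livers. The 78 genes of cytosolic ribosomal proteins had 3 higher and 0 lower calls, fewer than the background, although 76 had a higher mean at ZT17 (median log2 difference 0.19). All ZT17 livers were above all ZT5 livers in 50 of the 78 and below in 0, against 18.3% and 18.9% of the genes tested. The rise was thus small, and the members of the list are not independent replicates, so these counts only describe it. Relative to each gene's mean of the 6 times, the list median was 0.01, -0.10 and -0.10 in ZT5 livers 1, 2 and 3. In ZT17 livers 1, 2 and 3 the list median was 0.07, 0.19 and 0.09, all on the log2(value + 1) scale. The 3 calls were lost with the same total in every liver, in which the median of all genes also shifts down. No ribosomal protein gene was called without ZT5 liver 2 or 3 or without any 1 ZT17 liver.

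Some autophagy genes went the other way. Of 25 autophagy and lysosome genes, 6 were lower, 1 higher and 18 not called at ZT17, beside 10.5% lower and 9.26% higher of all genes tested. The median log2 difference of the list was -0.09. The 1 higher call was lost without ZT5 liver 2 or 3 or ZT17 liver 1 or 3. Ulk1 (ENSMUSG00000029512, chr5:110784488-110810097, minus strand), the kinase that starts autophagosome formation, had 107.7, 109.1 and 90.2 at ZT5 and 27.8, 38.7 and 39.7 at ZT17. It was 2.89-fold lower with no overlap (log2 difference -1.52 ± 0.14 SE, limma adjusted p = 6.60e-06). Gabarapl1, a ubiquitin-like protein of the autophagosome membrane, had 346, 350 and 338 at ZT5 and 138, 116 and 144 at ZT17 (log2 difference -1.37, limma adjusted p = 3.45e-06). The lysosomal protease gene Ctsl fell from 512 ± 60.1 to 325 ± 10.7 (SD, n = 3 each; log2 difference -0.65). The count of 6 was 6 or 7 without any 1 liver.

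Of 20 genes of glucose uptake, glycolysis and glycogen, 6 were higher, 2 lower and 12 not called. Over all genes tested 9.26% were higher and 10.5% lower, so the lower count was near the background. Ppp1r3b, which directs a phosphatase to glycogen, rose from 149 ± 33.6 to 500 ± 43.9 (SD, n = 3 each; log2 difference 1.76). Pfkfb1, the liver enzyme that sets fructose 2,6-bisphosphate, rose by 1.08. The 2 lower calls of this list were lost without ZT5 liver 3 and without ZT17 liver 1.

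Of 12 genes of gluconeogenesis 3 were lower and 1 higher, the latter not without ZT5 liver 1 or ZT17 liver 2. The called share of gluconeogenesis genes was 33.3%, against 19.7% of all genes tested. Pck1, its rate-setting enzyme, had 1596, 1385 and 824 at ZT5 and 209, 324 and 438 at ZT17, 3.92-fold lower (log2 difference -1.98 ± 0.42 SE, limma adjusted p = 0.00420). Got1, an aspartate aminotransferase, fell from 199 ± 10.7 to 68.1 ± 25.1 (SD, n = 3 each; log2 difference -1.60). Among 28 genes of fatty acid oxidation and ketogenesis 3 were lower and 3 higher, near the shares over all genes. The median log2 difference was -0.05, so the list showed no common direction. Cpt1a, which admits fatty acids to mitochondria, had 509, 362 and 373 at ZT5 and 173, 171 and 168 at ZT17 (log2 difference -1.26, limma adjusted p = 2.02e-05). The ketone body enzyme gene Bdh1 fell from 210 ± 13.5 to 130.1 ± 2.42 (log2 difference -0.68, limma adjusted p = 2.81e-05). Ppara, the nuclear receptor of the fasting state, had 114 to 119 at ZT5 and 56.9 to 78.8 at ZT17 (log2 difference -0.80, limma adjusted p = 0.0145), and its call was lost without ZT17 liver 2 (-0.69, adjusted p = 0.0614). The 3 higher genes of the list rose by 0.27 to 0.50 on the log2 scale, without overlap between the times. These 3 higher calls fell to 1 without ZT5 liver 1, ZT5 liver 2 or ZT17 liver 1.

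Fatty acid synthesis showed no common direction. Of 19 genes, Thrsp, a factor that favours lipogenesis, was at 201, 293 and 479 at ZT5 and at 758, 1653 and 1067 at ZT17 (log2 difference 1.85, limma adjusted p = 0.00327), and 1 more was higher, while Elovl5 (-1.22), Acss2 (-1.02) and Fads2 (-0.93) were lower. The second higher call was lost without ZT5 liver 1 or 3 or ZT17 liver 2 or 3. Of 16 genes of insulin signalling and FOXO targets 1 was higher, Ddit4 (log2 difference 1.61), an inhibitor of mTORC1 signalling, and 5 were lower, led by Trib3 (-1.77) and with the insulin receptor Insr (-0.56) among them. The 5 lower calls were 3 without ZT5 liver 2, ZT17 liver 1 or ZT17 liver 2. Called shares were 26.3% for fatty acid synthesis and 37.5% for the insulin and FOXO list, against 19.7% of all genes tested.

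Of 19 genes of bile acid synthesis and transport, 7 were lower and 5 higher at ZT17, a called share of 63.2% against 19.7% of all genes tested. Abcg8 (ENSMUSG00000024254, chr17:84676302-84700333, plus strand) and Abcg5 (ENSMUSG00000040505, chr17:84658234-84683011, minus strand) encode the 2 subunits of the sterol exporter of the bile canaliculus. Abcg8 had 137, 119 and 103 at ZT5 and 20.4, 28.0 and 24.7 at ZT17 (log2 difference -2.26 ± 0.14 SE, limma adjusted p = 1.96e-07). Abcg5 had 133, 89.2 and 90.6 at ZT5 and 33.0, 43.2 and 31.9 at ZT17 (log2 difference -1.49, limma adjusted p = 2.81e-05). Both were lower without overlap, but their gene bodies share 6710 bases on opposite strands, and the use of strand in counting is not given in the sources used here. Cyp7a1, the rate-limiting enzyme of bile acid synthesis, varied widely, with 62.8, 37.2 and 118 at ZT5 and 302, 115 and 180 at ZT17, and its livers overlapped (log2 difference 1.49, limma adjusted p = 0.0297). The Cyp7a1 call was lost without ZT5 liver 1 (1.46, adjusted p = 0.0726), ZT5 liver 2 (1.09, 0.132), ZT17 liver 1 (1.13, 0.130) or ZT17 liver 3 (1.51, 0.0608). The 5 higher calls were 2 without ZT5 liver 1 and 3 without ZT5 liver 2 or any 1 ZT17 liver, and the 7 lower calls stayed at 7. In cholesterol synthesis 3 of 25 genes were lower and 0 higher, with as few as 0 when 1 liver was left out. The called share of the cholesterol list, 12%, was below the 19.7% of all genes tested.

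Of 19 genes of polyamine and methionine metabolism, 6 were higher, 1 lower and 12 not called. The called share was 36.8%, against 19.7% of all genes tested. Odc1, the first enzyme of polyamine synthesis, had 61.1, 53.6 and 54.6 at ZT5 and 138, 147 and 129 at ZT17 (log2 difference 1.27 ± 0.12 SE, limma adjusted p = 9.54e-06). Srm, the spermidine synthase gene, had 10.3, 8.79 and 12.4 at ZT5 and 27.4, 37.2 and 26.8 at ZT17 (1.45, limma adjusted p = 2.22e-05), and Sat1, which breaks polyamines down, was lower (-0.51).

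Of 21 iron and heme genes 4 were higher and 5 lower, with a median log2 difference of 0.08 and thus no common direction. Tfrc, the transferrin receptor, had 19.1, 11.8 and 15.6 at ZT5 and 49.3, 43.9 and 44.6 at ZT17 (log2 difference 1.53, limma adjusted p = 6.11e-04), and the iron transporter gene Slc11a2 rose by 0.98. In the urea cycle and amino acid list 2 of 26 genes were higher, with Asl (0.99) the first, and 6 lower, with Sds (-1.001) and Oat (-0.85) among them. Of 21 cell cycle and p53 genes Cdkn1a, the cyclin-dependent kinase inhibitor p21, alone was higher and 2 were lower, with 0 lower without ZT5 liver 3, ZT17 liver 1 or ZT17 liver 2. Cdkn1a had 1.99, 0.909 and 1.39 at ZT5 and 8.95, 14.1 and 11.6 at ZT17, 8.08-fold (log2 difference 2.37, limma adjusted p = 6.63e-04). Called shares were 42.9% for iron and heme, 30.8% for the urea cycle list, 14.3% for cell cycle and p53 and 20% for glucocorticoid-responsive genes. Over all genes tested the share was 19.7%, so the cell cycle list lay below it and the glucocorticoid list near it. Glucocorticoid-responsive genes counted 3 higher and 0 lower of 15. Tsc22d3 rose from 43.4 ± 13.4 to 109.5 ± 15.7 (SD, n = 3 each; log2 difference 1.36), and Fkbp5 by 1.62 (limma adjusted p = 0.0111), a call lost without ZT17 liver 1 (1.38, adjusted p = 0.0544), in which case 1 gene of the list was called.

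Several of the largest differences lay outside these lists. By the rule of the 10 largest rises and falls without overlap, the rises were those of Gm20634, Cml5, Creld2, Cry1, Clic3, Eif4ebp3, Col27a1, Cyp2b10, Tsku and Hsph1. Gm20634 (ENSMUSG00000070392, chr3:96245554-96248509), a processed transcript with no known product, had 1.95, 0.614 and 4.71 at ZT5 and 39.3, 18.9 and 26.9 at ZT17, and its log2 difference of 3.23 was the largest rise of these. Cml5 (ENSMUSG00000079494, chr6:85817218-85820972), of the camello-like acetyltransferase family, had 2.90, 6.24 and 7.93 at ZT5 and 47.2, 59.7 and 55.9 at ZT17 (3.12, limma adjusted p = 2.11e-06). In both, all ZT17 livers were above all ZT5 livers by a wide gap. Cyp2b10, a drug-metabolizing cytochrome P450 under the nuclear receptor CAR, rose 6.16-fold (2.53). Cml5 and Cyp2b10 belong to families of similar neighbouring copies, so part of their reads may come from a relative. Tsku, a protein secreted by the liver, rose 5.44-fold (2.45), and Eif4ebp3, which binds the translation factor eIF4E, 6.49-fold (2.56). Clic3 was at 0.446 to 0.915 at ZT5, from 5 to 21.5 estimated reads, and at 8.93 to 10.3 at ZT17 (2.62). Col27a1, a fibrillar collagen gene, rose by 2.55.

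The 10 largest falls were those of Nr1d1, Dbp, Rgs16, Nr1d2, Slc7a2, Erbb4, Abcg8, Syt1, Abcd2 and Clec2h. Rgs16 (ENSMUSG00000026475, chr1:153740349-153745468), a regulator of G protein signalling, had 21.4, 79.7 and 54.9 at ZT5 and 2.85, 1.77 and 3.09 at ZT17 (log2 difference -3.73 ± 0.58 SE, limma adjusted p = 4.44e-04). Slc7a2 (ENSMUSG00000031596, chr8:40862396-40922308), a transporter of arginine and other cationic amino acids, had 820, 722 and 665 at ZT5 and 123, 158 and 145 at ZT17 (-2.37, limma adjusted p = 9.51e-07). The ZT5 livers of Rgs16 spread nearly 4-fold and those of Slc7a2 little, and neither gene overlapped between the times. Erbb4, a receptor tyrosine kinase, was at 0.377 to 0.509 at ZT17, from 5 to 7 estimated reads, against 4.90 to 8.10 at ZT5 (-2.36). Syt1 fell by 2.20, Abcd2, a peroxisomal transporter, by 2.15, and Clec2h by 2.15 on the log2 scale.

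Genes called between ZT17 and ZT5 were only in part those called in the other 12 h pairs. ZT21 against ZT9 gave 813 higher and 732 lower genes (5.63% and 5.07%), and ZT13 against ZT1 gave 982 and 1072 (6.80% and 7.42%). Of the genes higher at ZT17, 345 were also higher at ZT21 than at ZT9, which is 25.8% of the one list and 42.4% of the other, and 332 of the lower genes were also lower (21.9% and 45.4%). With ZT13 against ZT1 the shared numbers were 285 higher (21.3% and 29.0%) and 351 lower (23.2% and 32.7%). The difference itself departed from that of ZT21 against ZT9 in 569 genes (3.94%; 240 more positive and 329 more negative at ZT17 against ZT5) and from that of ZT13 against ZT1 in 1202 genes (8.32%).

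**Figure D5:**
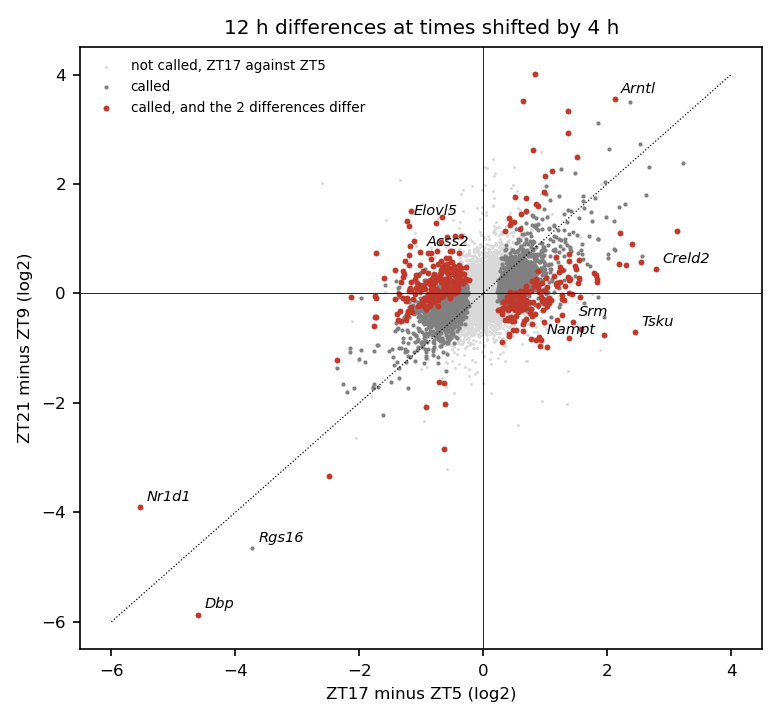
Log2 difference of ZT17 against ZT5 (x axis) and of ZT21 against ZT9 (y axis) for each gene tested, with genes called for ZT17 against ZT5 in dark grey and those whose 2 differences also differed in red (limma adjusted p below 0.05). The dotted line marks equal differences; Dbp lies at -4.60 and -5.87, Elovl5 at -1.22 and 1.33, and Creld2 at 2.79 and 0.44.

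Markers of the cell types of the liver gave the background of these lists. None of 14 hepatocyte markers was called (median log2 difference 0.10), and their summed value was 112480 to 133720 at ZT5 and 128580 to 141290 at ZT17. All 13 Kupffer cell and macrophage markers had lower means at ZT17 (median -0.46), with sums of 518 to 615 at ZT5 and 287 to 526 at ZT17, and 1 was called. All 12 sinusoidal endothelial markers had lower means too (median -0.47, sums of 375 to 472 and 217 to 382), and 3 were called, of which none was called without ZT5 liver 1, ZT5 liver 3 or ZT17 liver 2, 1 without ZT5 liver 2 or ZT17 liver 1 and 4 without ZT17 liver 3. ZT17 liver 2 had the lowest sum of both lists. Without ZT17 liver 3, 4 Kupffer markers were called, and without ZT5 liver 2, 2 were. The part of these cells in the genes lower at ZT17 was not tested. Of 12 stellate cell markers 0 were called, of 6 cholangiocyte markers 2 were higher (1 without ZT5 liver 2 or 3 or ZT17 liver 1), and the markers of lymphocytes (8 tested), neutrophils (4), red blood cells (5) and pancreas (2) had 0 calls in both directions, with ZT5 liver 1 highest in red blood cell markers.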

How the data were processed

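Livers of male WT mice were sequenced by the authors as single reads. Per the labels and the methods, they took reads with CASAVA 1.8.2, removed adapters with Cutadapt, mapped on the GRCm38 transcriptome (Ensembl), estimated counts with RSEM 1.2.20, whose model shares out reads with several matches, and used limma for normalization. What they deposited is a linear signal, in which 0.5 is added to the estimated count before scaling to 1000000 reads of an adjusted library size. Reads do not come out whole, so count tests were not used. The lowest value in a liver, that of 0 reads, gave its depth. More mice were kept per time than sequenced, and those with the best RNA were chosen.

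Values were analysed as log2(value + 1). limma 3.58.1 (R 4.3.3) fitted the means of all 6 times to the 18 livers, so that they share 1 estimate of the spread, and tested ZT17 minus ZT5, the other 12 h pairs and the differences between pairs, with Benjamini-Hochberg adjustment over 14449 genes. Of the table's 14451 genes, 2 at the floor in every liver were left out, and 13 rows repeat a symbol under another identifier. On simulated data of ZT17 against ZT5 with 14449 genes, the fit called 82 of 100 genes changed by 1 and 32 of 100 changed by 0.5 on the log2 scale, and 6 of 14249 unchanged genes. The changed genes were few and had a mean value of at least 1, and the noise was normal and independent between genes. These rates therefore need not hold for the real livers, in which more genes differed. Lists are described by counts and medians, with no test of a list. Motif shares are of promoter windows, with no test. Tables and figures were made in Python 3.11.15 with pandas 2.3.3, numpy 2.4.6 and matplotlib 3.10.9. Coordinates are of GENCODE M21 on GRCm38, and promoters of RefSeq on GRCm38.p6.

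The comparison, the gene lists, the rule for named genes and the alternatives were chosen with earlier results of these data known. By the rule, the named genes are the clock list, the 10 called genes with the largest rise and the 10 with the largest fall among those without overlap and with a mean of at least 1 at the higher time, and, of every other list, up to 3 called members with the largest rise and 3 with the largest fall, or the member with the smallest unadjusted p where none was called. A few genes outside the rule are marked as named after their values were seen, and Hsf1, Hspa1a and the genes that hold the spaced promoter pair are named to complete a count. Alternatives were the pseudocounts 0.1 and 5, a filter on mean values, 3 other scalings, the 6 livers alone, an intensity trend, voom weights, stricter thresholds and leaving out each liver. Some genes that the rule names are not reported here.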

Additional observations from a re-analysis of the deposited data

Results flagged for a closer look

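The change from ZT5 to ZT17 differed from the change from ZT9 to ZT21 in 569 genes by the limma test of that difference (adjusted p below 0.05), which is 3.94% of the genes tested. Of these, 69 were called in both pairs with opposite directions, and 6 of them are genes chosen by the naming rule.

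Elovl5, a fatty acid elongase, fell by 1.22 on the log2 scale from ZT5 to ZT17 and rose by 1.33 from ZT9 to ZT21, a gap of -2.55. Acss2, which makes acetyl-CoA from acetate, fell by 1.02 and rose by 0.75, a gap of -1.77. The kynureninase gene Kynu fell by 0.47 and rose by 0.49, a gap of -0.96. The other 3 rose from ZT5 to ZT17 and fell from ZT9 to ZT21. Srm had 1.45 and -0.53, a gap of 1.98, and Nampt, the rate-limiting enzyme of NAD salvage, had 0.93 and -0.85, a gap of 1.78. Slc37a4, the glucose 6-phosphate transporter gene, had 0.63 and -0.68, a gap of 1.31, and its ZT17 call was lost without ZT5 liver 1 (0.45, limma adjusted p = 0.0832) or ZT17 liver 2 (0.62, 0.0503). The limma adjusted p of the gap was between 4.73e-05 (Elovl5) and 0.00677 (Slc37a4).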

How the results depend on the processing

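The counts moved with the estimate of the spread, the scaling and the threshold. The 1338 higher and 1515 lower genes became 767 and 2504 with the same total in every liver, 765 and 935 with only the 6 livers, 636 and 743 at an adjusted p below 0.01, and 163 and 167 at a log2 difference of at least 1. Of the 187 calls among list members, 123 were left at 0.01 and 63 at a difference of at least 1. The 569 genes that departed from ZT21 against ZT9 became 199 and 228. Leaving out 1 liver gave 909 to 1091 higher genes, 1064 to 1284 lower genes, 143 to 158 list members and 399 to 537 departing genes. Apart from the scaling, the sample set, the threshold and the sample size, the cause of these shifts was not tested. Of the 77 genes named in the text by the rule (74 of them called), 49 kept their side of the threshold and direction in all 17 alternatives and 67 in the 15 that kept the threshold of 0.05. No paired analysis applied, because each liver came from another animal. The labels carry no replicate numbers, and the numbers used here only follow the order of the samples. Depth limits genes near the floor, such as Npas2, Clic3 and Erbb4.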

Other observations

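Calls among detoxification genes were in 1 direction with all livers. Log2 differences in the cytochrome P450 list ran from -2.12, which was not called, to 2.53. The called shares, 20.8% of the cytochrome P450 list and 16% of the phase II list, were near the 19.7% of all genes tested. Of 24 cytochrome P450 genes and xenobiotic factors 5 were higher at ZT17 and 0 lower, with 3 higher without ZT5 liver 1 or any 1 ZT17 liver, and 2 lower without ZT5 liver 2. Cyp3a13 rose from 127 ± 8.68 to 202 ± 17.9 (SD, n = 3 each, log2 difference 0.67, limma adjusted p = 0.00444). Of 25 genes of glutathione and phase II conjugation 4 were higher and 0 lower, with 1 higher without ZT17 liver 2 and 2 without ZT5 liver 1, ZT5 liver 3 or ZT17 liver 3. The glutathione transferase gene Gsta3 rose from 1119 ± 246 to 1975 ± 135 (log2 difference 0.84, limma adjusted p = 6.64e-04). With every liver scaled to the same total, 3 P450 and 2 phase II genes were higher and 1 of each list was lower.

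Of 28 genes of plasma proteins and the acute phase 2 were higher, Orm1 (0.70) and Serpina3k (0.60), and 1 was lower, a call lost without ZT5 liver 1 or 3 or ZT17 liver 1 or 3. In the growth hormone and IGF1 list of 15, Igfals, which carries IGF1 in plasma, was higher (0.86), and 3 genes were lower, with 1 lower without ZT5 liver 1 or 2 or ZT17 liver 1 or 2, and 2 without ZT17 liver 3. Of 16 genes of NAD synthesis and the sirtuins 3 were higher, Nampt among them, and 4 lower, with 2 higher without ZT5 liver 2, ZT5 liver 3 or ZT17 liver 2. Immediate early genes counted 2 lower and 0 higher of 15, led in adjusted p by the AP-1 gene Junb, which fell from 24.2 ± 1.67 to 9.26 ± 5.63 (SD, n = 3 each, log2 difference -1.43, limma adjusted p = 0.00292), and 1 was lower without ZT5 liver 3 or ZT17 liver 2. Of the 2 cold-inducible RNA-binding protein genes 1 was lower, but not without ZT5 liver 2, ZT17 liver 2 or ZT17 liver 3. Called shares were 10.7% for plasma proteins, 26.7% for growth hormone, 43.75% for NAD and 13.3% for immediate early genes. Over all genes tested the share was 19.7%, so the plasma protein and immediate early lists lay below it.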
